A study of Homo sapiens with 4 samples.

Results

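The 49 genes described here encode the machinery that carries a cell through mitosis: CDK1 and its switch, the mitotic kinases, the kinetochore, the spindle and its motors, and the proteins of anaphase and cytokinesis. They were selected by gene symbol, under a rule that uses no measured value, although earlier results of these data were known. All 49 were present among the 32673 genes of the expression table. RNA sequencing compared imatinib-sensitive TF1-BA cells with imatinib-resistant TF1-BAR cells, with 2 libraries of each line. TF1 is a human erythroleukaemia line that grows on GM-CSF, which was in the medium of both lines at a dose that the labels and the study's methods give differently. Both lines carry p210 BCR-ABL from a retrovirus, the fusion kinase of chronic myeloid leukaemia that imatinib inhibits. TF1-BAR cells came from TF1-BA cells kept in the drug for months, and they were cultured in 2 µM imatinib, whereas no drug is given for TF1-BA cells. Resistance, long drug exposure and the drug in the medium therefore cannot be told apart, and the comparison rests on 1 pair of lines. The labels title the TF1-BAR libraries VECTOR without saying why. Nothing in the labels says that libraries of a line came from separate cultures, so the p-values measure only the spread between these libraries, which may be technical.

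During mitosis, CDK1 bound to cyclin B triggers entry, and kinetochores built on CENPA nucleosomes attach the chromosomes to spindle microtubules. The spindle checkpoint holds the anaphase-promoting complex inactive until every chromosome is attached, after which CDC20 and UBE2C start the destruction of securin and cyclin B. Transcripts of most of these genes are made in late S phase, G2 and mitosis, so they are widely used as markers of proliferation. In bulk RNA, fewer cells in G2 and mitosis and less of these RNAs per cell cannot be told apart.

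The libraries held 15465498 to 18042300 fragments, as recovered from the steps of the deposited values. The fragments behind a member's value ranged from 110 to 18779. Pearson correlations of the log2 values over genes were 0.983 between the TF1-BA libraries, 0.979 between the TF1-BAR libraries and 0.946 to 0.956 across the lines. All 10 blood cell, erythroid and GM-CSF receptor markers given here were expressed, and 3 of them (CD34, CD33 and SPI1) rose in TF1-BAR cells. Of 6 genes taken as markers of other cell types, EPCAM, ALB, COL1A1 and CD3E were below the expression filter. KRT18 and PECAM1 passed it, and KRT18 rose. FPKM are fragment counts scaled to gene length and library size. Summed over these 6 genes, they were 56.2 and 58.4 in TF1-BA cells and 79.5 and 80.9 in TF1-BAR cells. KRT18 made up most of this difference, at 32.2 and 34.2 FPKM against 55.8 and 54.6 FPKM. PECAM1 was at 23.4 and 23.5 FPKM against 23.3 and 25.7 FPKM. The sum is thus no measure of other cells in the culture, and the part of its difference in the results was not tested.

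Promoters of mitotic genes typically carry CCAAT boxes, which bind NF-Y, and a cell cycle homology region (CHR), which is bound by the MuvB complex with its DREAM, B-MYB or FOXM1 partners. The promoters of the member with the lowest log2 fold change, CDK1, of its partner cyclin CCNB2, and of CDC25B, the phosphatase that activates CDK1 and the one member that rose, are shown to let these elements be seen. CCNB2 and CDC25B were added to CDK1 after their values were seen. Sequences are from RefSeq (GRCh38.p14) and run from 250 bases before to 50 bases after a transcription start, and capitals mark the CCAAT box and the CHR (letters TTTGAA), each read on both strands, so that the reverse complement is marked too.
CDK1, chr10:60778228-60778527, plus strand: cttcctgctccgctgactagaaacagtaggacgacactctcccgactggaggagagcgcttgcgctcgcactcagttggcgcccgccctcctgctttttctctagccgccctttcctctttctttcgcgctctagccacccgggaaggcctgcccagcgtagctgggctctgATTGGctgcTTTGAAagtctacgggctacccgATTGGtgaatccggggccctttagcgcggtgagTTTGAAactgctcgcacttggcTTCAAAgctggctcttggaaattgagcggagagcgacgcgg
CCNB2, chr15:59104896-59105195, plus strand: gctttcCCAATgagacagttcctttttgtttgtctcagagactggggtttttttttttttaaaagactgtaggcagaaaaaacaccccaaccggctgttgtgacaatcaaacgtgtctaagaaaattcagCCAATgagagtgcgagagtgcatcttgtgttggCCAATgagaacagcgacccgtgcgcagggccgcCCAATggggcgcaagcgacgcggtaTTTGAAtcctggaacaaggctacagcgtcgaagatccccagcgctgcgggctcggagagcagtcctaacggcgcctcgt
CDC25B, chr20:3796060-3796359, plus strand: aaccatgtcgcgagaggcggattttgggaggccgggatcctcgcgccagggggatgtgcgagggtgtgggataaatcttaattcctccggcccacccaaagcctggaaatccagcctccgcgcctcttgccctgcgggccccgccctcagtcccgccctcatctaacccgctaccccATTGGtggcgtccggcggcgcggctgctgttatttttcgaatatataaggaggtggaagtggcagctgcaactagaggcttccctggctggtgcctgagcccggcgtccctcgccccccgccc
The CDK1 sequence held CHR letters beginning at positions −69, −13 and 10 from the start and ATTGG at −78 and −46. An upstream start of CDK1 is also listed, with TTTGAA at −161 and CCAAT at −150. In CCNB2, CCAAT began at −244, −120, −87 and −54 and TTTGAA at −29. CDC25B has 4 listed starts, none with CHR letters, and the one shown held ATTGG at −73.

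The promoter set used here held sequences for 41 of the 49 members. It had no entry for the other 8 (BIRC5, CENPH, AURKA, TTK, BUB3, UBE2C, FOXM1 and CENPM). The letters of the CCAAT box were found in 33 of the 41 (80.5%), against 39.7% of 27305 genes, where a gene counted if any of its listed promoters held them. CHR letters were found in 31 (75.6%) against 18.2% of all genes, and both elements in 26 (63.4%) against 8.37%. Among the 9567 of these genes that were tested for expression, the shares were 43.3%, 13.3% and 7.34%. Among 55 other mitosis genes, a list described below, they were 67.3%, 47.3% and 32.7%. A match is no evidence of binding, and the letters of the 2 elements can share a base. The 31 members with CHR letters had a median log2 fold change of −0.45 and the 10 without −0.44. With both elements the median was −0.47 (26 members, 16 of them called lower by the test described below), and where at least one was missing it was −0.37 (15 members, 7 called lower).

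In the plot of levels, most members sat lower in TF1-BAR cells. Limma on log2(FPKM + 0.5), adjusted over 15519 genes, called 25 of the 49 members lower in TF1-BAR cells at an adjusted p under 0.05, whereas 10.5% of all genes tested were called lower. Among genes with a mean FPKM at least that of the lowest member the share was 12.9%. A single member, CDC25B, was called higher, against 16.3% of all genes. The words "fell" and "rose" are used below for genes called in this way. Both TF1-BAR libraries lay below both TF1-BA libraries for 42 members (28.4% of all genes) and above them for 2 members, CDC25B and FOXM1 (40.9% of all genes). The libraries of the lines overlapped for the other 5. The median log2 fold change was −0.36 over the members and 0.07 over all genes tested.

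**Figure D1:**
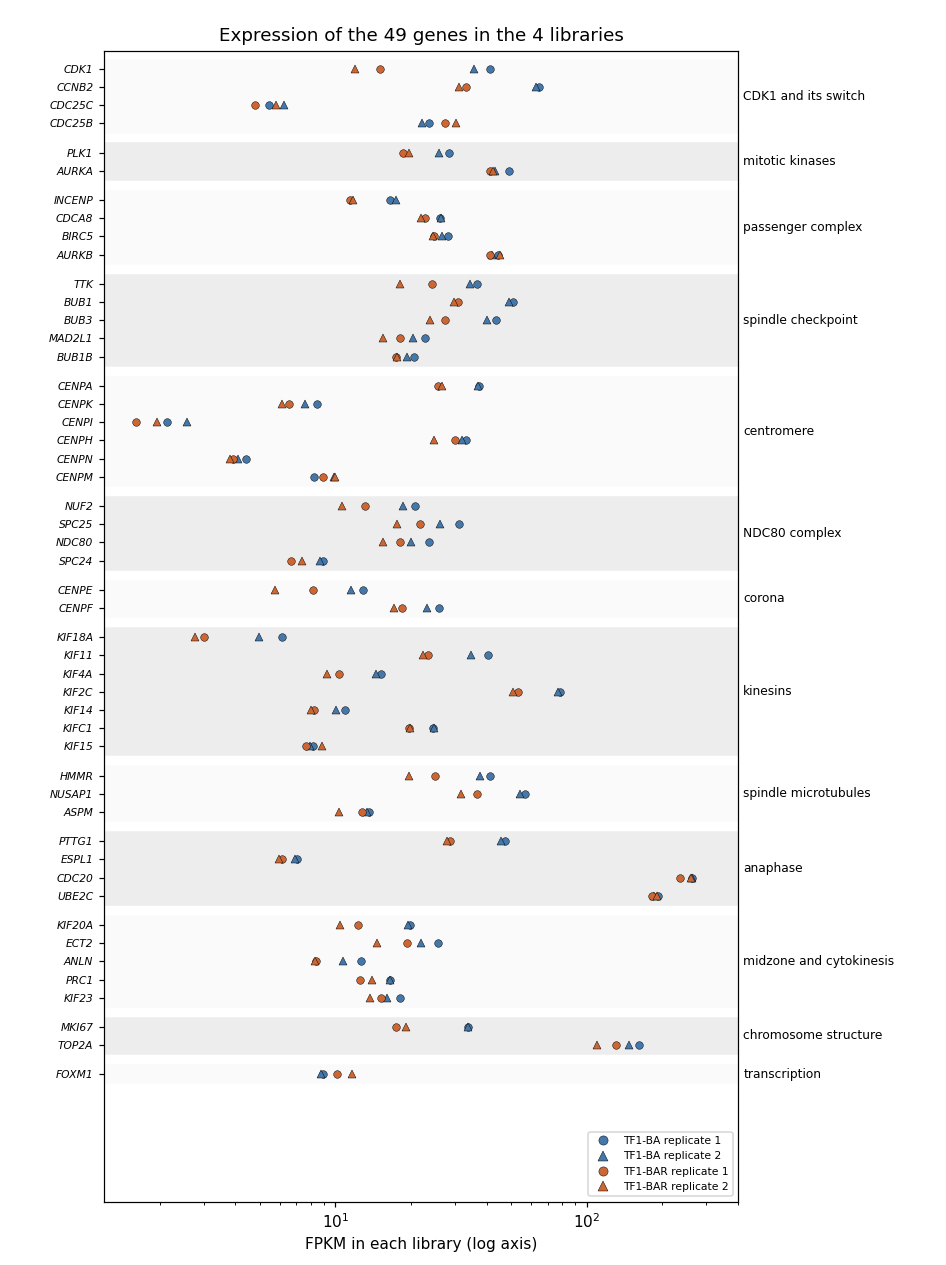
FPKM of each of the 49 genes in the 4 libraries on a log axis, with genes grouped by role, blue for TF1-BA and orange for TF1-BAR, circles for replicate 1 and triangles for replicate 2. For 42 genes both orange points lie to the left of both blue points, and for CDC25B and FOXM1 both lie to the right.

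The changes were mostly smaller than 2-fold. At the study's thresholds (log2 fold change of at least 1 in size and adjusted p under 0.05), 1 member was called, CDK1, which was lower, beside 1.69% of all genes called lower and 3.05% called higher. At a 1.5-fold threshold 14 members were called, all lower, beside 5.39% of all genes called lower and 8.56% called higher. Summed over the 49 genes, expression was 1819 and 1727 FPKM in TF1-BA cells and 1399 and 1366 FPKM in TF1-BAR cells, which is 0.724% and 0.681% of all fragments against 0.533% and 0.503%.

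The calls depended on having both TF1-BA libraries, for the members and over all genes tested alike. Without TF1-BA replicate 1, limma called 0 members lower (22 at an unadjusted p under 0.05) in a fit where the lone TF1-BA library was assumed to vary like the TF1-BAR pair. Without TF1-BA replicate 2 it called 0 lower (29 at an unadjusted p under 0.05). Leaving out a TF1-BAR library gave 23 (replicate 1) and 13 (replicate 2). CDK1 was called at both thresholds in all but the fits without a TF1-BA library, in which 0 members were called. CCNB2 was called beside it under upper-quartile scaling and with chromosome medians removed, and CCNB2 and CENPE (3 members in all) without TF1-BAR replicate 1. The log2 fold changes were steadier than the calls: 42 members stayed below 0, and FOXM1 above 0, under all 18 alternative settings, whereas UBE2C, CDC25C, AURKB, KIF15, CENPM and CDC25B changed sign under at least 1. With an exact permutation test, 2 libraries against 2 cannot give a p below 0.333 for a single gene.

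Among the 4 genes that control mitotic entry, CDK1 and CCNB2 fell, CDC25B rose and CDC25C did not pass. CDK1 (ENSG00000170312, chr10:60778331-60794852), the kinase that drives entry into mitosis, was at 41.4 and 35.7 FPKM in TF1-BA cells and at 15.0 and 11.9 FPKM in TF1-BAR cells. The groups were far apart, and the mean in TF1-BAR cells was 65.0% lower (log2 fold change −1.49, SE 0.14, limma adjusted p = 0.00595). CCNB2, a B-type cyclin that binds CDK1, was at 64.9 and 62.7 FPKM against 33.0 and 31.1 FPKM, the highest level of this group (log2 fold change −0.98, SE 0.06, limma adjusted p = 0.00394). CDC25B, a phosphatase that removes the inhibitory phosphates of CDK1, was at 23.6 and 22.1 FPKM in TF1-BA cells and at 27.3 and 30.1 FPKM in TF1-BAR cells. Its libraries did not overlap, and it rose by 0.32 on the log2 scale (SE 0.08, limma adjusted p = 0.0424). That call was lost without either TF1-BA library (adjusted p = 0.163 without replicate 1 and 0.234 without replicate 2) and with TF1-BAR replicate 2 left out (adjusted p = 0.112). The call also went when low genes were kept (adjusted p = 0.0973) or the variance trend was dropped (adjusted p = 0.0846), and with the chromosome medians removed its log2 fold change was −0.07 (adjusted p = 0.555). With the replicate number as a block its adjusted p was 0.062, and its adjusted p ranged from 0.0110 to 0.555 over the alternatives. CDC25C, the related phosphatase, had a log2 fold change of −0.13 (95% interval −0.45 to 0.20) with overlapping libraries.

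Of the 2 mitotic kinases that organise centrosomes and spindle poles, PLK1 fell by 0.49 on the log2 scale (limma adjusted p = 0.0156). AURKA, the Aurora kinase of the centrosome, was at 49.2 and 43.2 FPKM in TF1-BA cells and at 41.2 and 42.5 FPKM in TF1-BAR cells. Its log2 fold change was −0.14, with a 95% interval of −0.35 to 0.07. AURKB, the kinase of the chromosomal passenger complex, which corrects faulty attachments, was at 44.2 and 42.0 FPKM against 41.4 and 45.3 FPKM. These values overlapped, and the 95% interval of the log2 fold change was −0.18 to 0.20. INCENP, the scaffold of the complex, was the one passenger subunit of 4 that fell, with a log2 fold change of −0.53 (limma adjusted p = 0.0105). BIRC5 (survivin) and CDCA8 (borealin) had log2 fold changes of −0.15 and −0.23, and the values of the passenger complex thus ran from that of INCENP to 0.01 for AURKB.

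All 5 spindle checkpoint genes had both TF1-BAR libraries below both TF1-BA libraries, and 3 of them fell. BUB1, a checkpoint kinase of the kinetochore and the most abundant of the 5, was at 51.1 and 49.2 FPKM in TF1-BA cells and at 30.8 and 29.6 FPKM in TF1-BAR cells. Its log2 fold change was −0.72 (SE 0.06, limma adjusted p = 0.00561). BUB3, the partner that recruits BUB1 to kinetochores and a gene of chromosome 10, was at 43.4 and 40.01 FPKM against 27.2 and 23.9 FPKM (log2 fold change −0.70, SE 0.09, limma adjusted p = 0.0106). TTK, the kinase MPS1 at the head of the checkpoint, fell by 0.75 on the log2 scale. MAD2L1 and BUB1B, which belong to the complex that inhibits CDC20, had log2 fold changes of −0.35 and −0.18 and did not pass (limma adjusted p = 0.0672 and 0.1195).

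The kinetochore genes are given by layer, and no difference between layers was tested. CENPA, the histone H3 variant of the centromere, was at 37.1 and 36.9 FPKM in TF1-BA cells and at 25.5 and 26.5 FPKM in TF1-BAR cells, and was the one of 6 inner centromere genes that fell (log2 fold change −0.50, SE 0.06, limma adjusted p = 0.00911). CENPH, CENPI, CENPK and CENPN, subunits of the constitutive centromere network, had log2 fold changes of −0.26, −0.31, −0.32 and −0.12. CENPM of the same network was at 8.20 and 9.89 FPKM against 8.92 and 10.0 FPKM, which overlapped (log2 fold change 0.07, 95% interval −0.24 to 0.37). In the NDC80 complex, which binds microtubules, NUF2 and SPC25 fell and NDC80 and SPC24 did not pass, with log2 fold changes of −0.71, −0.53, −0.37 and −0.31. SPC25, the most abundant of the 4, was at 31.0 and 26.1 FPKM in TF1-BA cells and at 21.8 and 17.6 FPKM in TF1-BAR cells (limma adjusted p = 0.0468). Both genes of the outermost layer, the corona, fell: CENPE, a kinesin that carries chromosomes to the spindle equator, by 0.78 and CENPF by 0.45 on the log2 scale. CENPF was at 25.8 and 23.2 FPKM against 18.4 and 17.1 FPKM, with no overlap. With TF1-BAR replicate 2 left out, CENPE was at −0.54 on that scale, where its adjusted p was 0.0667, within a range of 0.000450 to 0.165 over the alternatives.

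Of the 7 kinesins of the spindle and chromosomes, 6 fell. KIF18A, which limits the length of kinetochore microtubules, was at 6.14 and 4.97 FPKM in TF1-BA cells and at 2.99 and 2.77 FPKM in TF1-BAR cells (log2 fold change −0.83, SE 0.12, limma adjusted p = 0.0130). KIF11 (Eg5), which pushes the spindle poles apart and lies on chromosome 10, was at 40.6 and 34.8 FPKM against 23.3 and 22.3 FPKM (log2 fold change −0.71, SE 0.09, limma adjusted p = 0.0108). KIF2C (MCAK), a microtubule depolymerase and the most abundant of the 7, was at 78.2 and 76.9 FPKM against 53.5 and 50.9 FPKM (log2 fold change −0.57, SE 0.06, limma adjusted p = 0.00714). KIF4A, KIF14 and KIFC1 fell by 0.58, 0.35 and 0.31 on the log2 scale. KIF15, which can share the pole-separating role of KIF11, was at 8.12 and 7.89 FPKM against 7.64 and 8.85 FPKM. These libraries overlapped, and the 95% interval of its log2 fold change was −0.21 to 0.28.

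Among proteins that bundle or focus spindle microtubules, HMMR and NUSAP1 fell. HMMR was at 41.1 and 37.7 FPKM in TF1-BA cells and at 24.8 and 19.6 FPKM in TF1-BAR cells (log2 fold change −0.82, SE 0.13, limma adjusted p = 0.0143). NUSAP1, at 56.9 and 54.1 FPKM against 36.5 and 31.5 FPKM, was the most abundant of the 3 (log2 fold change −0.70, SE 0.09, limma adjusted p = 0.0101). ASPM, a spindle pole protein, had a log2 fold change of −0.22 and did not pass (limma adjusted p = 0.197).

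The anaphase genes held the 2 highest levels of all 49 and, with 1 exception, did not pass the test. CDC20, the activator of the anaphase-promoting complex, was at 261.9 and 263.2 FPKM in TF1-BA cells and at 235.3 and 261.3 FPKM in TF1-BAR cells. Its log2 fold change was −0.08, with a 95% interval of −0.26 to 0.10. UBE2C, the ubiquitin-conjugating enzyme of that complex, overlapped between the lines (log2 fold change −0.02, 95% interval −0.16 to 0.13). ESPL1, the protease separase that cuts cohesin, had a log2 fold change of −0.19 and did not pass (limma adjusted p = 0.123). PTTG1, the securin that holds separase inactive, fell by 0.71 on the log2 scale (SE 0.06, limma adjusted p = 0.00565). Its interval of −0.87 to −0.55 did not reach those of CDC20, UBE2C and ESPL1, a difference between genes that was not itself tested.

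At the spindle midzone and cleavage furrow, KIF20A, ANLN and PRC1 fell, by 0.76, 0.46 and 0.31 on the log2 scale. ECT2, which activates RhoA at the furrow and was the most abundant of these 5 genes, was at 25.5 and 21.9 FPKM in TF1-BA cells and at 19.2 and 14.7 FPKM in TF1-BAR cells. Its groups did not overlap, and it did not pass (log2 fold change −0.48, SE 0.15, limma adjusted p = 0.0749). KIF23, the centralspindlin kinesin, had a log2 fold change of −0.23. Of the 2 genes of chromosome structure, MKI67, whose product Ki-67 coats mitotic chromosomes, was at 33.7 and 33.9 FPKM in TF1-BA cells and at 17.4 and 19.1 FPKM in TF1-BAR cells (log2 fold change −0.87, SE 0.07, limma adjusted p = 0.00534). TOP2A, the topoisomerase that untangles sister chromatids, was at 161.7 and 147.0 FPKM against 131.3 and 109.7 FPKM and did not pass (log2 fold change −0.36, limma adjusted p = 0.0637).

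FOXM1, the transcription factor that switches on many G2 and mitosis genes, lay on the other side. It was at 8.96 and 8.74 FPKM in TF1-BA cells and at 10.2 and 11.6 FPKM in TF1-BAR cells. The groups did not overlap, and the log2 fold change was 0.28, with a 95% interval of 0.05 to 0.52 before adjustment and a limma adjusted p of 0.0786. FOXM1 passed under TPM scaling and in a fit of recovered fragments (adjusted p = 0.0334), within a range of 0.0334 to 0.2998 over the alternatives. The kit used does not mark strand, and FOXM1 overlaps RHNO1 on the opposite strand, whose FPKM was 142% of its own. Overlapping genes were also expressed at 44.1% of the level of KIF18A (METTL15), 86.7% of KIF20A (CDC23), 55.7% of KIF4A (PDZD11), 52.9% of SPC25 (NOSTRIN), 129% of CDC25C (FAM53C), 44.3% of CENPA (SLC35F6), 43.8% of KIF15 (TMEM42) and 90.6% of CENPN (AC092718.4), so shared fragments could enter these values. Copies with a related name (KIF4B, CDC20P1, UBE2CP1 and MKI67P1) stood at 0.534% or less of their member.

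Chromosomes 10 and 20, which hold 7 members, were shifted between the lines, as the plot by chromosome shows. The median log2 fold change was −0.35 over 593 tested genes of chromosome 10, of which 44.5% were called lower, and 0.39 over 440 genes of chromosome 20, of which 46.8% were called higher. The 16 tested genes of the mitochondrial genome, none of them a member, had a median of −0.47, and 12 of them were called lower. The cause of these shifts and the part of the mitochondrial one in the members' values were not tested. All 4 members of chromosome 10 (CDK1, MKI67, KIF11 and BUB3) were among the 25 that fell. Relative to the chromosome median, their log2 fold changes were −1.14, −0.52, −0.37 and −0.35, and in a fit with the chromosome medians removed their limma adjusted p were 0.00991, 0.0135, 0.0499 and 0.0505. CDK1 thus remained past both thresholds in that fit, and BUB3 no longer passed. Of the 3 members of chromosome 20, CDC25B differed from its chromosome median by −0.07 (limma adjusted p = 0.555), while AURKA and UBE2C differed from it by −0.53 and −0.41 (limma adjusted p = 0.0175 and 0.0132). In that fit the medians were taken as known constants, so its p-values do not measure the spread among genes of a chromosome.

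Away from chromosomes 10 and 20, 21 of 42 members fell and 0 rose by limma (1 reached an unadjusted p under 0.05, FOXM1), with a median log2 fold change of −0.36. On the other autosomes and the X, 6.47% (chromosome 18) to 12% (chromosome 6) of a chromosome's tested genes were called lower. The shares called higher ran from 10.4% (chromosome 18) to 19.5% (chromosome 11). With the chromosome medians removed, 31 of the 49 members fell and 0 rose, 0 of them higher at an unadjusted p under 0.05, and the median was −0.41. CCNB2 then joined CDK1 past both thresholds. Over all genes, removing the chromosome medians changed the calls from 2537 higher and 1630 lower to 1746 higher and 1827 lower.

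Other genes of the mitotic machinery, 67 in number, also lay mostly below 0, as the cumulative plot shows. Of these, 28 fell and 1 rose, where the shares of all genes called were 10.5% lower and 16.3% higher. Their median log2 fold change was −0.29, and the count of those that fell was 0 without either TF1-BA library (by limma), 7 when TF1-BAR replicate 2 was left out and 24 when its replicate 1 was. KIF20B, a midzone kinesin, and ZWINT, a kinetochore protein, passed both thresholds, with log2 fold changes of −1.28 and −1.01. CEP55, which builds the abscission site, followed at −0.96. These 3 and MASTL and SMC3 are the 5 genes of this list on chromosome 10, and all 5 fell. With the chromosome medians removed, KIF20B and ZWINT were at −0.94 and −0.66, under the fold threshold, and SMC3 at −0.19 no longer passed (limma adjusted p = 0.155). Off chromosomes 10 and 20, 22 of 60 fell and 1 rose, beside the shares per chromosome given above. CCNB1, the main mitotic cyclin B, was at 63.2 and 53.9 FPKM in TF1-BA cells and at 41.6 and 30.9 FPKM in TF1-BAR cells (log2 fold change −0.70, SE 0.16, limma adjusted p = 0.0362). CCNA2, cyclin A, fell by 0.54 and TPX2, the AURKA activator on chromosome 20, by 0.29 on the log2 scale. ANAPC1, the largest subunit of the anaphase-promoting complex, was the one that rose, by 0.31, a call lost with the chromosome medians removed (limma adjusted p = 0.0598). CCNB1 and TPX2 no longer passed with the GC and length trend removed (limma adjusted p = 0.0626 and 0.0531).

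**Figure D2:**
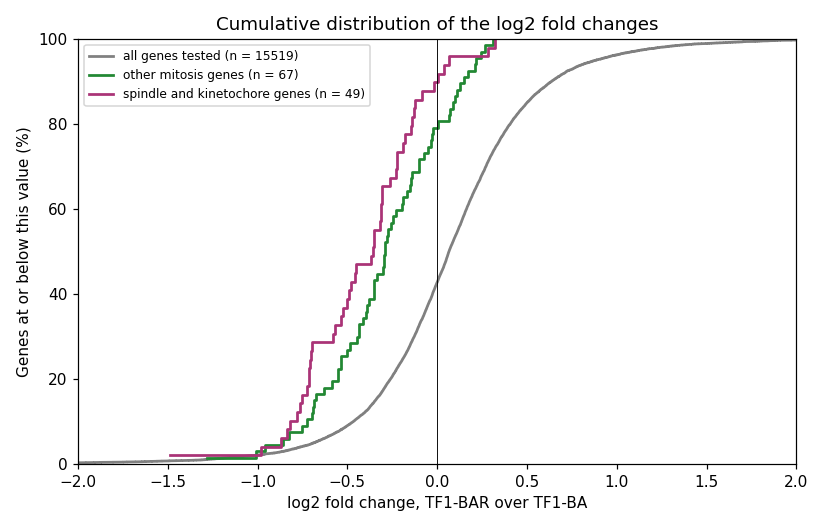
Share of genes at or below each log2 fold change (TF1-BAR over TF1-BA) for the 49 spindle and kinetochore genes, the 67 other mitosis genes and the 15519 genes tested. The curves of both mitosis lists lie to the left, with medians of −0.36 and −0.29 against 0.07 for all genes.

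Of 18 regulators of mitotic transcription, 2 fell and 5 rose, where 10.5% of all genes fell and 16.3% rose. CDKN1B (p27), an inhibitor of cyclin-dependent kinases, was at 19.8 and 20.04 FPKM in TF1-BA cells and at 14.5 and 14.4 FPKM in TF1-BAR cells (log2 fold change −0.45, SE 0.06, limma adjusted p = 0.0122). NFYB, a subunit of the CCAAT-binding factor NF-Y, fell by 0.36 on the log2 scale, whereas its partner subunit NFYC rose by 0.36. With the GC and length trend removed, NFYB was at −0.15 (limma adjusted p = 0.275) and NFYC at 0.33 no longer passed (limma adjusted p = 0.0565), nor did NFYC at 0.31 with the chromosome medians removed (limma adjusted p = 0.0702). TFDP2, a dimer partner of E2F factors, was at 5.12 and 5.33 FPKM against 7.51 and 8.63 FPKM (log2 fold change 0.58, SE 0.10, limma adjusted p = 0.0175). E2F5 and E2F4, the E2F factors of the repressive DREAM complex, and RBBP4, a MuvB subunit, rose by 0.44, 0.33 and 0.31 on the log2 scale, and E2F4 no longer passed with the chromosome medians removed (limma adjusted p = 0.1201). The other DREAM and MuvB genes of the list did not pass: LIN54, LIN9, LIN37, LIN52, TFDP1, RBL2 and RBL1 had log2 fold changes of −0.28, −0.22, −0.21, 0.01, 0.11, 0.12 and 0.20. MYBL2 (B-MYB), which with MuvB activates mitotic genes, had a log2 fold change of −0.14 and did not pass (limma adjusted p = 0.125). It lies on chromosome 20, and relative to that chromosome's median it was at −0.53 (limma adjusted p = 0.00841).

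Replicate 2 lay below replicate 1 for 40 of the 49 members in TF1-BA cells and for 31 in TF1-BAR cells, where the shares over all genes were 53.5% and 44.6%. The median log2 ratios between replicates, −0.07 and −0.05, were smaller in size than the median difference between the lines. The members' transcripts (the longest of each gene) had a median GC content of 43.5%, below the 47.6% of all genes tested. Across the 49 members, which share the same 4 libraries, the log2 fold change was higher at higher GC content (Spearman's rho 0.446, against 0.163 over all genes). After a spline on GC content, exon length and level was subtracted, 20 members fell, CDC25B still rose, and the median log2 fold change was −0.29. Over all 15519 genes tested, that fit called 1391 lower and 2577 higher, where the main fit called 1630 lower and 2537 higher. CENPE, ANLN, KIF14, SPC25 and PRC1 no longer passed in that fit, with limma adjusted p from 0.0549 to 0.121 and log2 fold changes of −0.58, −0.33, −0.20, −0.37 and −0.30.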

How the data were processed

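RNA from 2 TF1-BA and 2 TF1-BAR libraries was sequenced in read pairs on an Illumina HiSeq. The authors mapped reads to GRCh38 with TopHat 2.0.13 and ran the Cufflinks and Cuffdiff pipeline (2.2.0, per the submitters' processing notes). Their own test was a count model. The deposited table held FPKM per gene, normalised by the authors for gene length and library size, and no counts, so the count test could not be repeated.

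Genes whose FPKM averaged 0.5 or more over the 4 libraries (15519) were taken as log2(FPKM + 0.5) and fitted with limma 3.58.1 (R 4.3.3, empirical Bayes with a trend), with line as the only term and Benjamini-Hochberg adjustment over all genes. Fold changes on this scale understate those of low genes. Fragments were recovered from the FPKM steps: of 30853 genes above 0, 15176 were whole within 0.02 fragments at the exon length of GENCODE 44, and 15661 at a length fitted to make them whole, so these counts are estimates. The members, roles and gene lists were chosen with earlier results of these data known. Values per library are given for members past both thresholds, the 5 highest and 5 lowest log2 fold changes, called members of chromosomes that moved, and the most abundant member of each role. Of the other lists, the 3 highest and 3 lowest called genes and CCNB1, CCNA2, TPX2 and MYBL2 are named, and further names were chosen after their values were seen. Promoters were matched by symbol. Alternatives changed 1 choice at a time, except the replicate block run together with the GC correction: pseudocount, filter, scaling, variance model, replicate block, GC and chromosome correction, recovered fragments, and each library left out. Some markers and overlapping genes are not reported here.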

Additional observations from a re-analysis of the deposited data

How the results depend on the processing

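The median log2 fold change of the members stayed between −0.29 and −0.41 under the 14 alternatives that kept all libraries, and between −0.46 and −0.32 with 1 library left out. Under those 14 alternatives 12 of the 49 members were called lower every time (BUB1, CCNB2, CDK1, CENPA, INCENP, KIF11, KIF20A, KIF2C, KIF4A, MKI67, NUSAP1 and PTTG1). The count of members at both thresholds was 2 under upper-quartile scaling, 2 with chromosome medians removed, 14 at the 1.5-fold threshold and 0 to 3 with 1 library left out. The count called lower was 14 without a filter on low values and 0 to 23 with 1 library left out. The count called higher was 2 under TPM scaling and in limma voom on recovered fragments, 0 without a filter, without the variance trend and with chromosome medians removed, and 0 to 1 with 1 library left out. Of the other mitosis genes, 9 were called lower without a filter, 14 without the trend, 18 with the GC and length trend removed and 0 to 24 with 1 library left out. Of the same list, 2 were called higher under TPM scaling, in limma voom, and with the GC and length trend removed (also with the block), 0 without a filter, without the trend and with chromosome medians removed, and 0 to 1 with 1 library left out. The cause of these differences was not tested, except that leaving out a TF1-BA library leaves 1 library in that group.

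Of single genes, AURKB turned to −0.0197 under upper-quartile scaling and −0.1065 with chromosome medians removed (−0.0578 to 0.0711 with 1 library left out), and CDC25B to −0.0702 with chromosome medians removed. CENPM turned to −0.0337 with chromosome medians removed (−0.0628 to 0.1938 with 1 library left out). KIF15 turned to −0.0047 under quantile normalization and −0.0154 with chromosome medians removed (−0.0639 to 0.1372 with 1 library left out). UBE2C turned to 0.0518 under TPM scaling and 0.0319 with the GC and length trend removed, with and without the replicate block (−0.0453 to 0.0124 with 1 library left out). CDC25C ran from −0.2561 to 0.0005 with 1 library left out.

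The labels give the libraries of both lines the numbers 1 and 2 but do not say that a number marks a shared culture or day. Libraries that share a number deviated from the mean of their line with a correlation of 0.0646 over all genes and 0.573 over the members. With the replicate block, 28 members were called lower, 0 higher (CDC25B had an adjusted p of 0.062, and 0.054 with the GC trend removed too) and 1 at both thresholds, and with the block and the GC and length trend removed 22 were called lower and 0 higher. Over all genes, the calls at both thresholds were 474 higher and 263 lower, 302 and 185 with a pseudocount of 1 FPKM, 307 and 201 without a filter, and 765 and 381 in limma voom. At an adjusted p under 0.05 alone, 2537 genes were higher and 1630 lower, 851 and 595 without a filter, 25 and 17 without TF1-BA replicate 2, 85 and 59 without TF1-BA replicate 1, and 547 and 481 without TF1-BAR replicate 2. The member with the fewest fragments was CENPI, with 110 in its lowest library.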
